A study of Saccharomyces cerevisiae with 15 samples.

Results

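The 38 genes described here encode the nuclear part of the respiratory chain and the ATP synthase in the mitochondria of Saccharomyces cerevisiae. Measured values entered the rule only in picking, for a gene with several probe sets, the one with the highest mean. The genes were chosen by name, but earlier results of these data were known. They comprise 3 NADH dehydrogenases, 4 subunits of complex II, 9 of complex III, 2 cytochromes c, 9 subunits of complex IV and 11 of the ATP synthase. All 38 had a probe set annotated to that gene alone, among 5656 genes with such a probe set. Messenger RNA was measured on single-colour oligonucleotide arrays in CEN.PK113-7D, a prototrophic laboratory strain of mating type a. The cells came from aerobic chemostats, in which fresh medium flows in at a fixed rate so that 1 nutrient sets the growth rate, here glucose at 7.5 g/l in the feed. The feed held proline at 8.8 g/l, leucine at 10.0, phenylalanine at 5.0 or methionine at 11.3 as the only nitrogen source, and the reference was asparagine at 5.0 g/l, with 3 arrays for each of the 5 sources. Strain, potassium sulfate (6.6 g/l), dilution rate (0.10 per hour), temperature (30 °C), pH (5.0) and aeration were shared by all groups. The study was set up around preferred and non-preferred nitrogen sources, and each comparison asks how the genes differed between 1 source and asparagine.

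The respiratory chain passes electrons from NADH and succinate to oxygen and pumps protons across the inner mitochondrial membrane, and the ATP synthase uses the returning protons to make ATP. Saccharomyces cerevisiae has no proton-pumping complex I. Single-protein NADH dehydrogenases take its place, NDI1 facing the matrix and NDE1 and NDE2 facing the cytosol. Several components come as isoform pairs: CYC1 and CYC7 are forms of cytochrome c, the mobile carrier between complexes III and IV, and COX5A and COX5B are forms of subunit 5 of complex IV, of which CYC1 and COX5A are known as the aerobic forms. Many nuclear genes of the chain are known targets of the HAP2, HAP3, HAP4 and HAP5 activator.

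The deposited values are signals on a linear scale in arbitrary units, scaled so that the arrays have nearly equal trimmed means (150.09 to 150.15). The median signal of an array ranged between 38.2, on phenylalanine array 3, and 55.1, on asparagine array 3. Phenylalanine array 3 also had the highest mean signal of the hybridisation controls, 1567, where the next highest, on asparagine array 1, was 927. Its median over the members was the highest as well (log2 10.31). The part of this array in the results was not tested beyond leaving out each array in turn. The number of arrays limits the precision. None of the arrays had the same values as another. The 3′ over 5′ ratio of the actin probe sets, a measure of RNA integrity, averaged 1.90 for proline, 2.11 for leucine, 2.81 for phenylalanine and 1.76 for methionine, against 2.77 for asparagine. Its part in the results was not tested beyond a fit that holds the ratio as a covariate. An instrument record of phenylalanine array 1 notes that the array was run again after servicing of the scanner. Whether other arrays were run again is not known. The part of the second run in the results was not tested beyond leaving out the array. The group means of 5 genes specific to mating type a, the labelled one, lay between 60.3 and 3134, and those of 4 alpha genes between 5.70 and 129.9. The signals come from whole cultures, in which fewer cells holding a transcript and less transcript per cell cannot be told apart.

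On the deposited scaling, most members gave their highest signals with phenylalanine and their lowest with asparagine. The median log2 signal over the 38 members was 9.80 to 9.86 on the proline arrays, 9.88 to 10.02 on the leucine arrays, 10.08 to 10.31 on the phenylalanine arrays and 9.99 to 10.14 on the methionine arrays, against 9.47 to 9.57 on the asparagine arrays. The mean of a source was highest with phenylalanine for 28 members, with methionine for 7, with proline for 2 and with leucine for 1, and with asparagine for none of the 38. It was lowest with asparagine for 26. These orders were not counted over all probe sets or under another scaling, so they are not set against a background. The median signal of an array was 38.2 to 47.6 with phenylalanine and 51.0 to 55.1 with asparagine. The differences were small: the highest mean of a source was 1.24 to 4.72 times the lowest, with a median over members of 1.60, and reached 2-fold in NDE2, CYC7 and NDI1 alone. All 38 probe sets passed the filter on dim signals, and 32 lay above the 90th percentile of signal, where brightness depends on the probes as well as on the transcript.

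In the moderated F test over the 5 sources (limma, adjusted over all 7459 probe sets tested, threshold 0.05), 29 of the 38 members differed, or 76.3%, against 52.2% of all probe sets. Phenylalanine had the most members called higher than asparagine, 28 (73.7%), where 7.56% of all probe sets were called higher, and 2 were called lower, where 18.1% of all were. With methionine 19 members (50.0%) were higher, against a background of 14.4%, and 2 (5.26%) were lower, against 24.2%. With leucine 10 members (26.3%) were higher and 2 lower, against 9.88% and 11.0% of all probe sets. With proline 5 members (13.2%) were higher and none of the 38 was lower, against 4.60% and 8.70%. These backgrounds cover probe sets of any brightness that passed the filter, whereas 32 members lay above the 90th percentile of signal. No background of like brightness was counted. With the filter at the 50th percentile, 28 members were higher and 2 lower with phenylalanine, against 10.3% and 20.7% of all probe sets. The proline count moved with single arrays. It was 3 without asparagine array 1 and 1 without asparagine array 3, it was 3, 2 and 2 without proline array 1, 2 or 3, and it was 9 without phenylalanine array 2 or 3. The share of all probe sets called higher moved as well, to 2.75% and 1.92% without asparagine array 1 or 3. That share was 2.2%, 2.48% and 3.37% without proline array 1, 2 or 3, and 5.79% and 5.76% without phenylalanine array 2 or 3. Where a member passed the test in 1 comparison and not in another, the difference between the 2 sources was not tested. The 9 members not called in the F test were COR1, QCR8, COX7, COX8, COX12, ATP5, ATP14, ATP17 and ATP20. Among them, COR1 was still called higher with methionine, and COX7, COX8, ATP5, ATP17 and ATP20 with phenylalanine.

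The median log2 difference from asparagine over the 38 members was 0.10 for proline, 0.22 for leucine, 0.52 for phenylalanine and 0.32 for methionine, against -0.08, -0.03, -0.16 and -0.09 over all tested probe sets in the same order. The 3 arrays of the source did not overlap those of asparagine in 14 members for proline, 21 for leucine, 30 for phenylalanine and 24 for methionine. Of all tested probe sets 36.8% did not overlap for proline, 39.1% for leucine, 33.8% for phenylalanine and 55.6% for methionine, so that the proline count was at the background and the methionine count close to it. The 4 comparisons share the 3 asparagine arrays, so their counts are not independent of each other. Scaling mattered most with phenylalanine. Quantile normalization moved the median of all probe sets by 0.17 there and by 0.11 with methionine, and the members' median above it was then 0.36 and 0.30, against 0.68 and 0.41 with the deposited scaling. The phenylalanine calls were then 21 higher and 1 lower, with 11.4% and 10.9% of all probe sets called higher and lower. Centring each array on its median moved the median of all probe sets by 0.13 with proline, 0.31 with phenylalanine and 0.20 with methionine, and gave 6, 32 and 22 members higher and 0, 1 and 1 lower. The backgrounds were then 7.40%, 18.1% and 23.4% higher and 5.01%, 6.82% and 15.4% lower. A fit over the 6 phenylalanine and asparagine arrays alone called 15 members higher and 1 lower. Of all probe sets 3.32% were called higher and 7.95% lower in that fit.

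**Figure D1:**
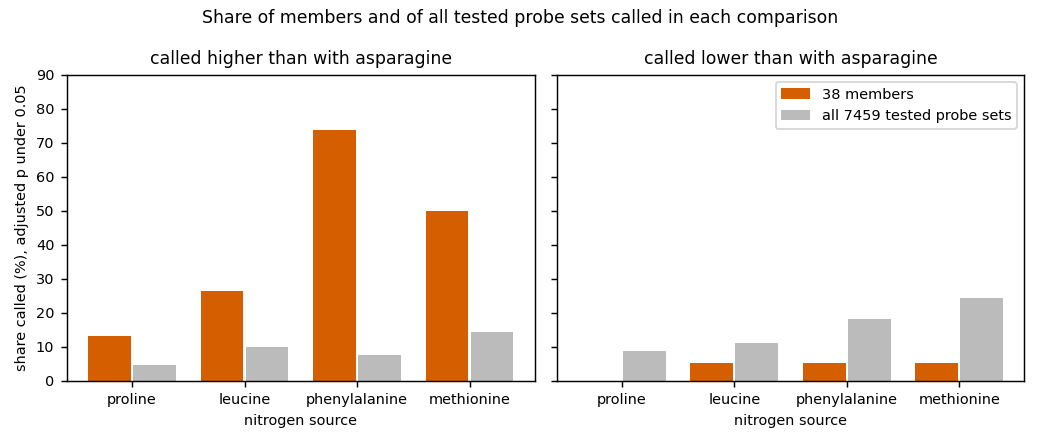
Share of the 38 members (orange) and of all 7459 tested probe sets (grey) called higher (left panel) or lower (right panel) than with asparagine, in percent at an adjusted p under 0.05, for each nitrogen source. With phenylalanine 73.7% of members were called higher, against 7.56% of all probe sets. The grey bars are not matched to the members for brightness.

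**Figure D2:**
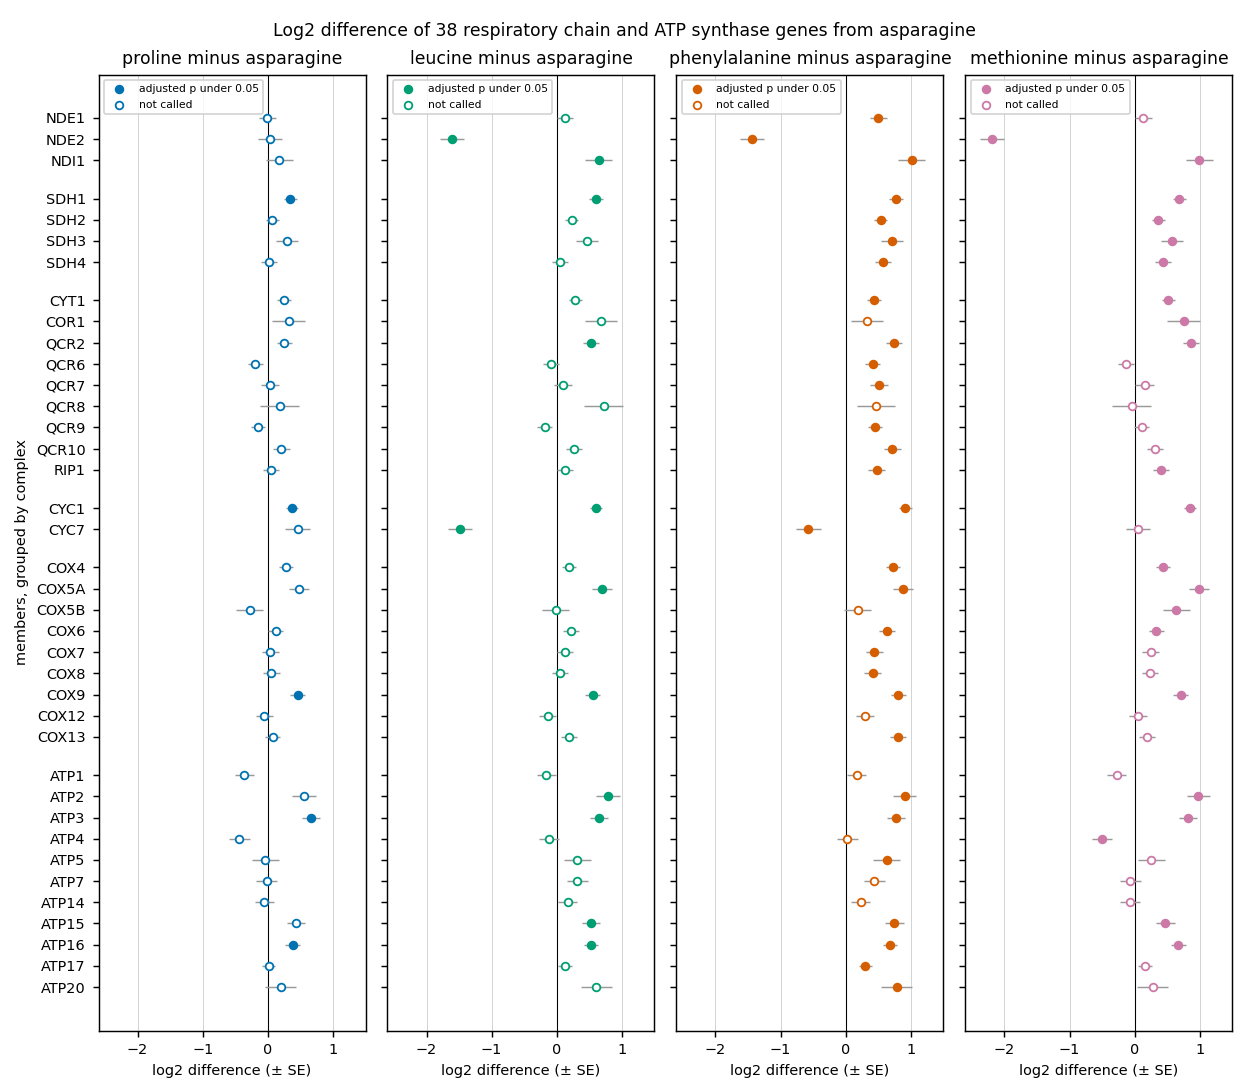
Log2 difference (x axis, with its standard error) of each member (y axis, grouped by complex in the order NADH dehydrogenases, complex II, complex III, cytochrome c, complex IV and ATP synthase) between each of 4 nitrogen sources and asparagine, 1 panel for each source. Filled points passed an adjusted p under 0.05 and open points did not, and the points left of 0 at the NDE2 and CYC7 rows are the large decreases.

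The 3 NADH dehydrogenases differed in opposite directions. NDE2 fell with leucine, phenylalanine and methionine, NDI1 rose with the same 3 sources, and NDE1 rose with phenylalanine. NDE2 gave signals of 373, 308 and 431 with proline, 135, 98.1 and 122 with leucine, 121, 176 and 108 with phenylalanine, 73.4, 85.0 and 77.0 with methionine, against 407, 321 and 353 with asparagine. The 9 arrays with leucine, phenylalanine and methionine all lay below the 3 asparagine arrays, and the proline arrays overlapped them. The log2 difference of NDE2 was -1.61 ± 0.19 with leucine (adjusted p = 1.1e-05), -1.44 ± 0.19 with phenylalanine (adjusted p = 5.7e-05) and -2.19 ± 0.19 with methionine (adjusted p = 3.6e-07). The methionine signal was thus 0.22 of the asparagine signal, the largest decrease among members, and the 3 decreases held under each of 25 alternatives. For proline the log2 difference was 0.03 ± 0.19 (adjusted p = 0.93). NDE1, its partner on the outer face of the inner membrane, gave 1213, 1244 and 1284 with proline, 1402, 1574 and 1163 with leucine, 1503, 1817 and 2057 with phenylalanine, 1278, 1474 and 1380.2 with methionine, against 1354, 1189.8 and 1227 with asparagine. The phenylalanine arrays alone lay apart from asparagine, with a log2 difference of 0.50 ± 0.13 (adjusted p = 0.011), a call that quantile normalization and the fit over 6 arrays did not keep.

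NDI1 gave 714, 692 and 440.2 with proline, 861, 799.7 and 841 with leucine, 1217, 812 and 1255 with phenylalanine, 1019.6, 1153 and 1009.8 with methionine, against 404, 628 and 599 with asparagine. NDI1 passes electrons from matrix NADH to ubiquinone, and its arrays with leucine, phenylalanine and methionine did not overlap those with asparagine. The log2 differences were 0.64 ± 0.21 with leucine (adjusted p = 0.037), 1.01 ± 0.21 with phenylalanine (adjusted p = 0.0026) and 0.99 ± 0.21 with methionine (adjusted p = 0.0017). The leucine call was lost under 8 of 25 alternatives, among them leaving out asparagine array 1 or any of the 3 leucine arrays, while the other 2 calls held in all 25.

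The 4 subunits of complex II, succinate dehydrogenase, all rose with phenylalanine and with methionine, and SDH1 also with proline and leucine. SDH1 gave signals of 668, 762 and 639 with proline, 781, 806 and 877 with leucine, 924, 969 and 879.7 with phenylalanine, 849.9, 914 and 843 with methionine, against 577, 533 and 515 with asparagine. SDH1 is the flavoprotein that holds the site where succinate is oxidised, and its 12 arrays with the other sources all lay above the 3 with asparagine. The log2 difference of SDH1 was 0.35 ± 0.10 with proline (adjusted p = 0.036), 0.60 ± 0.10 with leucine (adjusted p = 0.00045), 0.77 ± 0.10 with phenylalanine (adjusted p = 7e-05) and 0.68 ± 0.10 with methionine (adjusted p = 0.00011). The other subunits are SDH2, which carries the iron-sulfur clusters, and the membrane anchors SDH3 and SDH4. With phenylalanine SDH2, SDH3 and SDH4 were higher by log2 0.54, 0.71 and 0.57 (adjusted p = 0.0014, 0.0075 and 0.0038), and with methionine by 0.36, 0.58 and 0.43 (adjusted p = 0.01, 0.015 and 0.012). None of these 3 was called with proline or leucine, where their log2 differences lay between 0.02 and 0.47. The median over the 4 subunits was 0.18 for proline, 0.35 for leucine, 0.64 for phenylalanine and 0.51 for methionine. Without asparagine array 3 or methionine array 2 the methionine call of SDH3 was lost. The phenylalanine calls of SDH3 and SDH4 were lost in the fit over 6 arrays (adjusted p = 0.0513 and 0.0613). The methionine call of SDH2 was lost with the actin ratio as a covariate (adjusted p = 0.0525). The proline call of SDH1 was lost under 10 of 25 alternatives, among them leaving out any of the asparagine arrays or proline array 1 or 2.

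The genome also holds paralogs of these subunits, SDH9 of SDH1, SHH3 of SDH3 and SHH4 of SDH4, and all 3 of this listed group fell with leucine, phenylalanine and methionine. Their median log2 difference was 0.53 for proline, -2.12 for leucine, -1.92 for phenylalanine and -1.62 for methionine. SHH3 gave signals of 588, 742 and 796 with proline, 14.7, 24.3 and 17.5 with leucine, 27.7, 50.0 and 16.4 with phenylalanine, 42.7, 37.1 and 45.7 with methionine, against 571, 464 and 434 with asparagine. All 9 arrays with leucine, phenylalanine and methionine lay below all those with proline and asparagine, and the log2 differences were -4.72 ± 0.30 with leucine (adjusted p = 1.5e-08), -4.10 ± 0.30 with phenylalanine (adjusted p = 1.2e-07) and -3.54 ± 0.30 with methionine (adjusted p = 3.3e-07). With proline SHH3 had a log2 difference of 0.53 ± 0.30 (adjusted p = 0.27). SDH9 gave signals of 216, 226 and 248 with proline, 24.3, 33.9 and 37.7 with leucine, 37.9, 44.2 and 27.9 with phenylalanine, 39.4, 47.4 and 47.0 with methionine, against 122, 142 and 146 with asparagine. SDH9 fell by 2.12, 1.92 and 1.62 on the log2 scale with leucine, phenylalanine and methionine (adjusted p = 6.9e-07, 3.5e-06 and 1.1e-05). It rose by 0.75 with proline (adjusted p = 0.018), a call lost without asparagine array 1 or 3 or any of the proline arrays. SHH4 gave signals of 265, 370.1 and 271 with proline, 81.9, 52.4 and 101 with leucine, 56.8, 85.9 and 93.6 with phenylalanine, 103, 112 and 92.6 with methionine, against 326, 256 and 218 with asparagine. SHH4 fell by 1.79, 1.77 and 1.36 on the log2 scale with the same 3 sources (adjusted p = 5.3e-05, 9.5e-05 and 0.00048), and with proline its log2 difference was 0.18 ± 0.24 (adjusted p = 0.68). In both SDH9 and SHH4 no array with leucine, phenylalanine or methionine overlapped those with asparagine. The decreases of the 3 paralogs held under each of 25 alternatives, and the paralogs moved against SDH1, SDH3 and SDH4 with phenylalanine and methionine.

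**Figure D3:**
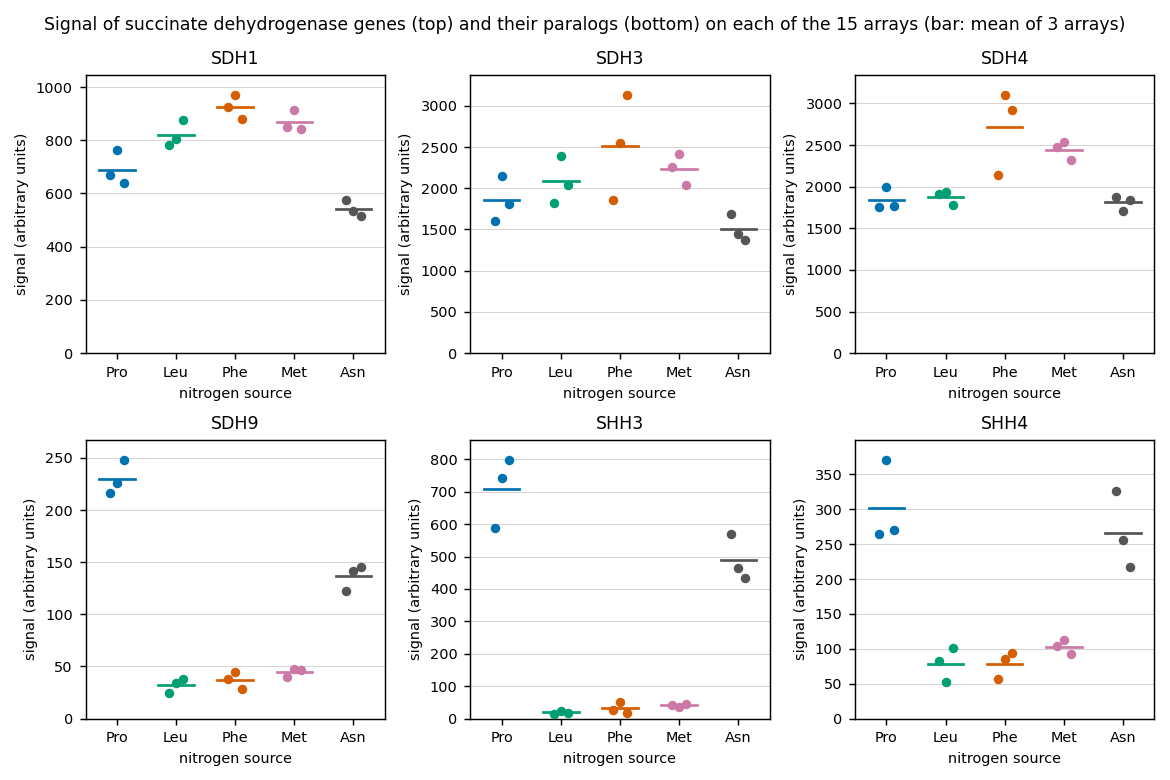
Signal in arbitrary units (y axis) of SDH1, SDH3 and SDH4 (top) and of their paralogs SDH9, SHH3 and SHH4 (bottom) on each array, by nitrogen source (x axis). Points are arrays and bars the means of 3 arrays, and the paralogs are low with leucine, phenylalanine and methionine, where SDH1 is above its asparagine signals.

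Complex III passes electrons from ubiquinol to cytochrome c. With phenylalanine 7 of its 9 subunits rose, with methionine 4, with leucine 1 (QCR2) and with proline none of the 9. QCR2 gave signals of 911, 866 and 713 with proline, 962, 939.7 and 1088 with leucine, 1133, 1218 and 1108 with phenylalanine, 1172, 1388 and 1239.5 with methionine, against 613, 756 and 715 with asparagine. QCR2 is a core subunit on the matrix side, and its log2 differences were 0.52 ± 0.12 with leucine (adjusted p = 0.0052), 0.74 ± 0.12 with phenylalanine (adjusted p = 0.00049) and 0.87 ± 0.12 with methionine (adjusted p = 5.8e-05), each with no overlap with the asparagine arrays. With proline the arrays of QCR2 overlapped those with asparagine, and the log2 difference was 0.26 ± 0.12 (adjusted p = 0.18). The redox subunits, CYT1 with cytochrome c1 and RIP1 with the Rieske iron-sulfur cluster, rose with phenylalanine by log2 0.43 and 0.47 (adjusted p = 0.0076 and 0.013) and with methionine by 0.52 and 0.40 (adjusted p = 0.0013 and 0.019). The small subunits QCR6, QCR7, QCR9 and QCR10 rose with phenylalanine and passed with no other source, by log2 0.41, 0.51, 0.45 and 0.72 (adjusted p = 0.021, 0.016, 0.0096 and 0.00082). The calls of QCR6 and QCR7 were lost without asparagine array 2 or 3, and also without phenylalanine array 2 for QCR6 and array 3 for QCR7. The methionine call of RIP1 was lost without asparagine array 1 or methionine array 1. The phenylalanine calls of CYT1, RIP1 and QCR9 did not hold under every alternative. That of CYT1 was lost in the fit over 6 arrays (adjusted p = 0.101). The median over the 9 subunits was 0.18 for proline, 0.26 for leucine, 0.47 for phenylalanine and 0.31 for methionine. For the small subunits the methionine log2 differences lay between -0.13 and 0.31.

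COR1 gave 624, 626 and 486 with proline, 749, 729 and 738 with leucine, 330.0, 718 and 817 with phenylalanine, 808, 769 and 755 with methionine, against 366, 556 and 482 with asparagine. On phenylalanine array 1 COR1, the other core subunit, lay below all 3 asparagine arrays, while on the other 2 it lay above them. Array 1 is the one recorded as run again, and the part of that in this value was not tested. COR1 rose with methionine, by 0.75 ± 0.25 (adjusted p = 0.027), a call lost without asparagine array 1 or 3 or any of the methionine arrays. With phenylalanine the log2 difference of COR1 was 0.33 ± 0.25 (adjusted p = 0.37), and without phenylalanine array 1 it was 0.73 (adjusted p = 0.0057), the only one of 25 alternatives in which COR1 was called there. The highest adjusted p over these alternatives was 0.999. The probe set of QCR8 was dim, between 24.1 and 76.5 on the 15 arrays, its second probe set lay between 0.10 and 2.90, and QCR8 was called in none of the 4 comparisons. A probe set for RIP1 among the array controls gave means of 1085 for proline, 1112 for leucine, 1381 for phenylalanine and 1351 for methionine, against 659.6 for asparagine (SD 197, 181, 533, 51.0 and 67.2, n = 3 each). Its proline and leucine arrays lay above those with asparagine, whereas the tested probe set of RIP1 had log2 differences of 0.05 and 0.13 there and was not called. The control probe set was not part of the test.

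Of the cytochromes c, CYC1 rose with all 4 sources, and CYC7 fell with leucine and phenylalanine. CYC1 gave signals of 1252, 1367 and 1459.9 with proline, 1559, 1597 and 1616 with leucine, 1895, 1916 and 2142 with phenylalanine, 1779.8, 2046 and 1853 with methionine, against 1036, 1054 and 1057 with asparagine. The 12 arrays with the other sources all lay above the 3 with asparagine, which spanned 1036 to 1057. The log2 difference of CYC1 was 0.37 ± 0.10 with proline (adjusted p = 0.019), 0.60 ± 0.10 with leucine (adjusted p = 0.00025), 0.92 ± 0.10 with phenylalanine (adjusted p = 5.7e-06) and 0.85 ± 0.10 with methionine (adjusted p = 6.7e-06). The proline call was lost without asparagine array 1 or 3 or proline array 2 or 3, and the other 3 held under each of 25 alternatives. CYC7 gave signals of 121, 88.6 and 109 with proline, 25.4, 25.4 and 31.7 with leucine, 39.5, 57.6 and 60.3 with phenylalanine, 93.2, 70.6 and 76.3 with methionine, against 83.1, 67.7 and 80.3 with asparagine. The leucine arrays were the lowest of all, the phenylalanine arrays lay between them and asparagine, and the methionine arrays overlapped asparagine. CYC7 is a form of cytochrome c known from oxygen-poor cells, and it fell to 0.36 of the asparagine signal with leucine, a log2 difference of -1.49 ± 0.19 (adjusted p = 2.9e-05) that held under each of 25 alternatives. With phenylalanine it was -0.57 ± 0.19 (adjusted p = 0.037), a call lost under 7 alternatives, among them quantile normalization, median centring and leaving out asparagine array 1 or 3 or phenylalanine array 1. With proline the CYC7 arrays lay above those with asparagine, but the difference, 0.46 ± 0.19 (adjusted p = 0.13), did not pass the test.

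Complex IV, cytochrome c oxidase, reduces oxygen, and 7 of its 9 nuclear subunits rose with phenylalanine, 5 with methionine, 2 with leucine and 1 with proline, with none of the 9 called lower. COX5A gave signals of 1028, 1130.2 and 1007 with proline, 1308, 1097 and 1281 with leucine, 1377, 1057 and 1877 with phenylalanine, 1457, 1509 and 1552 with methionine, against 741, 757 and 774 with asparagine. COX5A, the aerobic form of subunit 5, had no array that overlapped asparagine in any source, and its phenylalanine arrays were the most spread. Its log2 difference was 0.48 ± 0.15 with proline (adjusted p = 0.054), 0.69 ± 0.15 with leucine (adjusted p = 0.0042), 0.89 ± 0.15 with phenylalanine (adjusted p = 0.00082) and 0.99 ± 0.15 with methionine (adjusted p = 0.00017), so that proline missed the threshold. COX5B gave signals of 19.1, 14.8 and 12.5 with proline, 20.1, 20.0 and 15.2 with leucine, 23.0, 20.7 and 19.5 with phenylalanine, 29.4, 28.0 and 29.0 with methionine, against 16.8, 19.6 and 19.2 with asparagine. COX5B, the form known from oxygen-poor cells, was dim on all arrays. It passed the test with methionine, where it rose by 0.64 ± 0.21 (adjusted p = 0.024), with 3 arrays above every other, and the call was lost without asparagine array 1, without any of the methionine arrays, or with the actin ratio as a covariate. With proline, leucine and phenylalanine its adjusted p was 0.41, 0.97 and 0.55.

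COX9 gave signals of 892, 913 and 999 with proline, 978, 951 and 1058 with leucine, 1309.5, 1033 and 1245 with phenylalanine, 1203, 1109 and 1019.6 with methionine, against 739, 648 and 655 with asparagine. COX9 is a small membrane subunit, and its arrays with every other source lay above those with asparagine. The log2 difference of COX9 was 0.46 ± 0.11 with proline (adjusted p = 0.017), 0.55 ± 0.11 with leucine (adjusted p = 0.0022), 0.81 ± 0.11 with phenylalanine (adjusted p = 0.00012) and 0.71 ± 0.11 with methionine (adjusted p = 0.0002), of which that for proline did not pass without asparagine array 3, without proline array 3, or with the actin ratio as a covariate. COX4 gave signals of 1070.4, 1011 and 1010.3 with proline, 1017, 927 and 953 with leucine, 1393, 1217 and 1622 with phenylalanine, 1212, 1094 and 1117 with methionine, against 848, 834 and 859 with asparagine. COX4 binds zinc on the matrix side. It rose with phenylalanine by 0.73 ± 0.11 (adjusted p = 0.00018) and with methionine by 0.43 ± 0.11 (adjusted p = 0.0053). COX13 gave signals of 759, 737 and 716 with proline, 745, 870.5 and 786 with leucine, 1263, 1127 and 1276 with phenylalanine, 824, 770.5 and 806 with methionine, against 805, 575 and 743 with asparagine. COX13 passed the test with phenylalanine, at 0.80 ± 0.12 (adjusted p = 0.00024), while with methionine its log2 difference was 0.19 ± 0.12 (adjusted p = 0.23). Among the other small subunits, COX6 rose with phenylalanine and methionine (log2 0.64 and 0.33, adjusted p = 0.0013 and 0.037), COX7 and COX8 with phenylalanine (log2 0.44 and 0.41, adjusted p = 0.023 and 0.027), and COX12 was called in none of the 4 comparisons. The COX7 and COX8 calls were lost without asparagine array 2 or 3 or phenylalanine array 2 or 3. Neither gene passed the F test (adjusted p = 0.0519 and 0.0534), and the phenylalanine arrays of COX8 overlapped those with asparagine. The methionine call of COX6 was lost without any of the asparagine arrays or methionine array 1 or 2. The median over the 9 subunits was 0.07 for proline, 0.19 for leucine, 0.64 for phenylalanine and 0.33 for methionine.

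**Figure D4:**
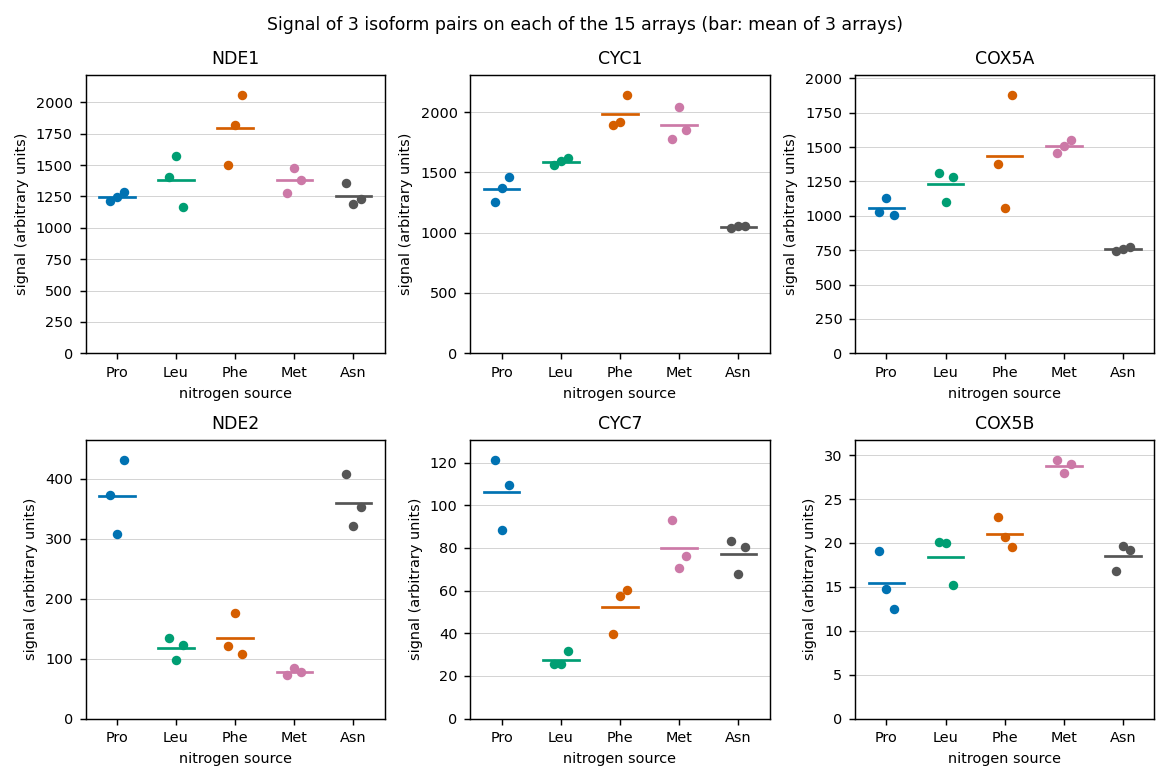
Signal in arbitrary units (y axis) of NDE1, CYC1 and COX5A (top) and of their partners NDE2, CYC7 and COX5B (bottom) on each array, by nitrogen source (x axis). Points are arrays and bars the means of 3 arrays. The NDE2 arrays with leucine, phenylalanine and methionine and the CYC7 arrays with leucine lie far below those with asparagine.

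The difference in log2 signal between the partners of a pair was taken on each array, so that the scaling of the array drops out. Its level depends on the probes of both genes and does not say which isoform was more abundant, but its change between sources can be read. NDE1 minus NDE2 was 1.70, 2.01 and 1.58 with proline, 3.38, 4.00 and 3.25 with leucine, 3.64, 3.36 and 4.26 with phenylalanine, 4.12, 4.12 and 4.16 with methionine, against 1.73, 1.89 and 1.80 with asparagine. The values with leucine, phenylalanine and methionine all lay above those with asparagine and proline. An exact permutation test of the F statistic over all 1401400 divisions of the 15 arrays into 5 groups of 3 gave p = 0.00045, adjusted over the 3 pairs to 0.00068. CYC1 minus CYC7 was 3.37, 3.95 and 3.74 with proline, 5.94, 5.97 and 5.67 with leucine, 5.58, 5.06 and 5.15 with phenylalanine, 4.26, 4.86 and 4.60 with methionine, against 3.64, 3.96 and 3.72 with asparagine. The leucine values were the highest and did not overlap those of another source, and the exact permutation test gave p = 7.1e-06 (adjusted 2.1e-05). COX5A minus COX5B was 5.75, 6.25 and 6.33 with proline, 6.02, 5.78 and 6.40 with leucine, 5.90, 5.67 and 6.59 with phenylalanine, 5.63, 5.75 and 5.74 with methionine, against 5.46, 5.27 and 5.33 with asparagine. The 12 values with the other sources lay above the 3 with asparagine, but the exact permutation test over the 5 sources did not pass the threshold (p = 0.052, adjusted 0.052). With all arrays of 1 source left out it gave 0.049 without proline, 0.036 without leucine, 0.017 without phenylalanine, 0.083 without methionine and 0.45 without asparagine. It gave 0.028, 0.041, 0.025 and 0.017 without proline array 1, leucine array 2, phenylalanine array 2 or phenylalanine array 3, in an overall range of 0.017 to 0.13 when 1 array was left out. The mean difference lay above that with asparagine by 2.33 with methionine for NDE1 minus NDE2, by 2.09 with leucine for CYC1 minus CYC7 and by 0.76 with proline for COX5A minus COX5B.

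**Figure D5:**
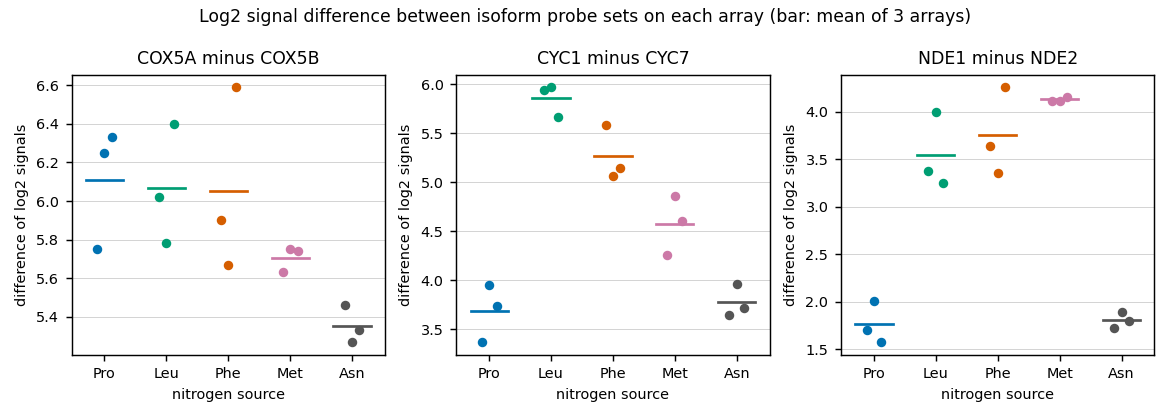
Difference of log2 signals between the probe sets of 3 isoform pairs (y axis, not starting at 0) on each array, by nitrogen source (x axis). Points are arrays and bars the means of 3 arrays. NDE1 minus NDE2 is high with leucine, phenylalanine and methionine, CYC1 minus CYC7 is highest with leucine, and COX5A minus COX5B is lowest with asparagine.

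Of the 11 nuclear ATP synthase subunits, 7 rose with phenylalanine, 4 with methionine, 4 with leucine and 2 with proline, and ATP4 fell with methionine. The catalytic head in the matrix is built of ATP1 (alpha), ATP2 (beta), ATP3 (gamma), ATP16 (delta) and ATP15 (epsilon), and the last 4 made up all the leucine and methionine increases. ATP3 gave signals of 1294, 1263 and 1239 with proline, 1236, 1224 and 1285 with leucine, 1440.1, 1086 and 1628 with phenylalanine, 1412, 1378 and 1452 with methionine, against 667, 916 and 833 with asparagine. ATP3 is the rotating shaft, and its arrays with every other source lay above those with asparagine. The log2 difference of ATP3 was 0.66 ± 0.14 with proline (adjusted p = 0.0067), 0.65 ± 0.14 with leucine (adjusted p = 0.0032), 0.77 ± 0.14 with phenylalanine (adjusted p = 0.00098) and 0.82 ± 0.14 with methionine (adjusted p = 0.00031). ATP16 gave signals of 816, 917 and 805 with proline, 891, 885 and 1021 with leucine, 1146, 907 and 1082 with phenylalanine, 1038, 1083 and 982 with methionine, against 649, 652 and 645 with asparagine. The 3 asparagine arrays of ATP16 spanned 645 to 652, and all other arrays were higher. The log2 difference of ATP16 was 0.38 ± 0.11 with proline (adjusted p = 0.032), 0.52 ± 0.11 with leucine (adjusted p = 0.0026), 0.68 ± 0.11 with phenylalanine (adjusted p = 0.0004) and 0.67 ± 0.11 with methionine (adjusted p = 0.00022). The proline call of ATP16 was lost under 9 of 25 alternatives, among them leaving out any 1 of the asparagine or proline arrays, and that of ATP3 was lost with the actin ratio as a covariate.

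ATP2 holds the catalytic sites. It rose by log2 0.79 with leucine, 0.90 with phenylalanine and 0.98 with methionine (adjusted p = 0.0049, 0.0022 and 0.00066). ATP15 rose by 0.53, 0.75 and 0.47 with the same sources (adjusted p = 0.014, 0.0015 and 0.016). Its leucine call was lost without asparagine array 2 or 3 or leucine array 3, and its methionine call without asparagine array 2 or 3 or methionine array 1. ATP1, the partner of ATP2 in the head, was called in none of the 4 comparisons, with log2 differences of -0.36 for proline, -0.16 for leucine, 0.17 for phenylalanine and -0.28 for methionine. ATP5, the link between head and stalk, and ATP17 and ATP20, of the membrane part, rose with phenylalanine by log2 0.63, 0.30 and 0.78 (adjusted p = 0.034, 0.047 and 0.025). The ATP17 call was lost under 17 of 25 alternatives, that of ATP5 without asparagine array 2 or 3 or phenylalanine array 2 or 3, and that of ATP20 without asparagine array 1 or 2 or phenylalanine array 3. ATP4 gave signals of 652, 497 and 627 with proline, 719, 748 and 725 with leucine, 749.7, 841 and 840.4 with phenylalanine, 563, 489.7 and 649 with methionine, against 737, 665 and 1028 with asparagine. ATP4 is the main subunit of the peripheral stalk. Its proline and methionine arrays lay below those with asparagine, of which array 3 was the highest. With proline the log2 difference was -0.44 ± 0.16 (adjusted p = 0.079) and did not pass the test. The log2 difference with methionine was -0.50 ± 0.16 (adjusted p = 0.021), a call lost under median centring, with the actin ratio as a covariate, and without asparagine array 3 or methionine array 1 or 2. ATP7, another stalk subunit, was called in none of the 4 comparisons. The median over the 11 subunits was 0.01 for proline, 0.32 for leucine, 0.63 for phenylalanine and 0.26 for methionine.

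ATP14, subunit h of the stalk, had 2 probe sets that differed. The brighter one, used throughout, was called in none of the 4 comparisons, with log2 differences of -0.05 for proline, 0.17 for leucine, 0.23 for phenylalanine and -0.07 for methionine. The dimmer probe set gave 1302, 1229 and 1316 with proline, 1396, 1331 and 1475 with leucine, 1530.5, 1652 and 1674 with phenylalanine, 1659, 1558 and 1582 with methionine, against 1014, 1019.7 and 979 with asparagine. All its arrays with other sources lay above those with asparagine, and it rose by log2 0.35 for proline, 0.48 for leucine, 0.69 for phenylalanine and 0.67 for methionine (adjusted p = 0.017, 0.00085, 4.8e-05 and 3.1e-05). The response of ATP14 therefore depends on the probe set read. With the probe set of the lowest mean, 6 members were called for proline, 13 for leucine, 31 for phenylalanine and 22 for methionine. No other member had more than 1 tested probe set, although the untested control probe set of RIP1 also differed from the tested one with proline and leucine.

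Other genes of the pathway were read from listed groups, beside the share of all probe sets called: 4.60% were higher and 8.70% lower for proline, 9.88% were higher and 11.0% lower for leucine, 7.56% were higher and 18.1% lower for phenylalanine, and 14.4% were higher and 24.2% lower for methionine. In lists of 5 to 11 genes, a count of 1 or 2 in a direction is too few to set apart from these shares. Of 6 regulators of respiratory genes, 2 rose with phenylalanine and 3 with methionine, 1 fell with proline and 1 with methionine, and none of the 6 passed with leucine. Their median log2 difference was -0.12 for proline, 0.40 for leucine, 0.33 for phenylalanine and 0.43 for methionine. HAP4 gave signals of 383, 387 and 389.7 with proline, 552, 683 and 533 with leucine, 904, 534 and 766 with phenylalanine, 557, 829.6 and 636 with methionine, against 347, 443 and 523 with asparagine. HAP4 is the activating subunit of the HAP complex. Its leucine, phenylalanine and methionine arrays lay above those with asparagine, with the lowest leucine and phenylalanine arrays close to the highest asparagine array. Its log2 difference was 0.73 ± 0.20 with phenylalanine (adjusted p = 0.014) and 0.62 ± 0.20 with methionine (adjusted p = 0.021), and -0.16 ± 0.20 with proline (adjusted p = 0.66). The phenylalanine call was lost without asparagine array 1 or phenylalanine array 1 and in the fit over 6 arrays, and the methionine call without asparagine array 1 or methionine array 2 and with the actin ratio as a covariate. HAP3, a DNA-binding subunit, rose by log2 0.64 with phenylalanine and 0.56 with methionine (adjusted p = 0.0025 and 0.0037), and these calls held under each of 25 alternatives. HAP5 rose with methionine by 0.86 (adjusted p = 0.0025; lost with the actin ratio as a covariate), and HAP2 fell with methionine by 1.09 on the log2 scale (adjusted p = 0.0016) and with proline by 0.76 (adjusted p = 0.04), the proline call being lost under 11 of 25 alternatives. HAP1 and ROX1 were called in none of the 4 comparisons.

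Of 17 assembly factors of complex IV, 2 rose with proline, 7 with leucine and 3 with phenylalanine, 10 rose with methionine, and 1 fell with proline, 1 with leucine and 1 with methionine. Their median log2 difference was -0.03 for proline, 0.23 for leucine, 0.20 for phenylalanine and 0.37 for methionine. COX10, which acts in heme A synthesis, rose with methionine by log2 0.83 (adjusted p = 0.00044) and COX11, which inserts copper, by 0.81 (adjusted p = 0.00052). With phenylalanine, where more complex IV subunits were called, the log2 differences of COX10 and COX11 were 0.17 and 0.24 (adjusted p = 0.42 and 0.26). COX14 rose with all 4 sources, by 0.68 for proline, 0.76 for leucine, 0.70 for phenylalanine and 1.12 for methionine (adjusted p = 0.029, 0.0084, 0.015 and 0.00031), of which the proline call was lost under 7 of 25 alternatives, the phenylalanine call under 5 and the leucine call without leucine array 3. Of 11 assembly factors of complexes II and III and cytochrome c, 0 rose and 2 fell with proline, 3 rose and 1 fell with leucine, 2 rose and 0 fell with phenylalanine, and 3 rose and 2 fell with methionine, with medians of -0.12 for proline, 0.26 for leucine, 0.13 for phenylalanine and 0.08 for methionine. SDH6, an assembly factor of complex II, rose with phenylalanine by 0.69 (adjusted p = 0.0021), a call that held under each of 25 alternatives. SDH6 fell with proline by 0.47 on the log2 scale (adjusted p = 0.036) and with methionine by 0.36 (adjusted p = 0.049), calls lost under 8 and 16 of 25 alternatives, median centring and most settings without 1 of the arrays compared among them. Of 7 assembly factors of the ATP synthase, 0 rose and 1 fell with proline, 1 rose and 0 fell with leucine, 1 rose and 0 fell with phenylalanine, and 2 rose and 1 fell with methionine, with medians of -0.49 for proline, 0.24 for leucine, -0.04 for phenylalanine and 0.13 for methionine.

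Of 6 further ATP synthase subunits and inhibitors, 1 rose and 0 fell with proline, 1 rose and 1 fell with leucine, 2 rose and 1 fell with phenylalanine, and 1 rose and 1 fell with methionine, with medians of -0.02 for proline, -0.06 for leucine, 0.36 for phenylalanine and 0.10 for methionine. ATP19, subunit k, rose with all 4 sources, by log2 0.69 for proline, 0.59 for leucine, 0.72 for phenylalanine and 0.48 for methionine (adjusted p = 0.006, 0.0074, 0.0021 and 0.016), and its methionine call was lost without asparagine array 3 or methionine array 1 or 3. STF2 gave signals of 1340.0, 1286 and 1368 with proline, 665, 655 and 615 with leucine, 934, 1323 and 1388 with phenylalanine, 976, 887 and 1002 with methionine, against 1978, 1416 and 1764 with asparagine. STF2 is known as a factor that acts with the ATP synthase inhibitor, and all 12 of its arrays with other sources lay below those with asparagine. It fell by 1.40 with leucine, 0.51 with phenylalanine and 0.84 with methionine on the log2 scale (adjusted p = 3.8e-06, 0.02 and 0.00041), and the phenylalanine call was lost under 5 of 25 alternatives, median centring among them. Of 5 carriers of ADP, ATP and phosphate, 0 rose and 0 fell with proline, 1 rose and 0 fell with leucine, 3 rose and 0 fell with phenylalanine, and 2 rose and 1 fell with methionine, with medians of 0.10 for proline, 0.15 for leucine, 0.31 for phenylalanine and 0.59 for methionine. MIR1, the main phosphate carrier, rose by 0.54 with phenylalanine and 0.59 with methionine (adjusted p = 0.017 and 0.0062), a phenylalanine call lost without asparagine array 1 or phenylalanine array 3. Of 10 genes of ubiquinone synthesis, 1 rose and 0 fell with proline, 2 rose and 1 fell with leucine, 1 rose and 0 fell with phenylalanine, and 3 rose and 1 fell with methionine, with medians of 0.22 for proline, 0.19 for leucine, 0.20 for phenylalanine and 0.31 for methionine.

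Other enzymes feed electrons into the chain beside NADH dehydrogenases and complex II. Of 5 such enzymes, 1 rose with each source, PUT1, the proline oxidase, and 2 fell with leucine and 3 with methionine. Their medians were -0.19 for proline, -0.12 for leucine, 0.17 for phenylalanine and -0.45 for methionine. PUT1 gave signals of 1092, 1079 and 1334 with proline, 154, 162 and 172 with leucine, 233, 175 and 249.5 with phenylalanine, 582, 632 and 708 with methionine, against 58.0, 72.4 and 91.2 with asparagine. The groups did not overlap asparagine in any source, and the log2 differences of PUT1 were 4.00 for proline, 1.16 for leucine, 1.58 for phenylalanine and 3.14 for methionine (adjusted p = 2.5e-10, 0.00011, 8.4e-06 and 1.7e-09). CYB2, the lactate dehydrogenase that hands electrons to cytochrome c, and GUT2, the mitochondrial glycerol 3-phosphate dehydrogenase, fell with methionine by 0.89 and 0.67 on the log2 scale (adjusted p = 1.6e-05 and 0.00044). They fell with leucine by 0.47 and 0.44 (adjusted p = 0.0052 and 0.013), calls lost for CYB2 under median centring and for GUT2 without asparagine array 3 or leucine array 2.

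Mitochondrial DNA encodes 7 further subunits of these complexes. The labels give the molecule as polyA RNA, whereas mitochondrial messengers of this yeast carry no poly(A) tail. The part of this in their signals was not tested. Of the 7 subunits 4 passed the filter, and 2 rose with methionine. The medians of the 4 were -0.45 for proline, -0.67 for leucine, -0.17 for phenylalanine and 0.89 for methionine. COX1 gave signals of 56.0, 46.7 and 28.7 with proline, 22.8, 82.7 and 39.2 with leucine, 68.4, 130.2 and 13.8 with phenylalanine, 96.5, 649 and 374 with methionine, against 58.3, 49.7 and 69.8 with asparagine. Methionine array 1 lay within the range of the phenylalanine arrays, and the methionine arrays spanned 96.5 to 649, for a log2 difference of 2.29 ± 0.73 (adjusted p = 0.022). The call for COX1 was lost without asparagine array 1 or 2 or methionine array 2 or 3, without the filter and with the actin ratio as a covariate. OLI1, the ring subunit of the ATP synthase, rose with methionine by log2 0.43 (adjusted p = 0.03), a call lost without asparagine array 2 or 3 or methionine array 2.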

How the data were processed

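Signals of 15 Affymetrix YG_S98 arrays, 1 linear intensity per probe set and array, were deposited by the authors. MAS5 made them, per the submitters' processing notes, in a version not given in the sources used here. No detection flags were given, and 310 intensities were 0, none in a member's probe set. Groups come from the labels, which name triplicates without saying whether these were separate cultures, and p-values therefore cover only the spread between arrays, which may be technical. Sequences and coordinates were not used here.

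Of 9335 probe sets 60 controls were left out. Intensities were floored at 2, the 10th percentile, and taken to log2. Probe sets above the 25th percentile (9.90) on at least 3 arrays were tested, 7459 in all. A gene with several probe sets was read from the one with the highest mean. Fold changes are on this floored log2 scale. A linear model with 1 mean per source was fitted to all 15 arrays with limma 3.58.1 (R 4.3.3; lmFit, eBayes with trend; 2-sided, Benjamini-Hochberg over all tested probe sets), and gave the F test and 4 contrasts with asparagine. Isoform pairs had the exact permutation test, adjusted over 3 pairs (Python 3.11.15, NumPy 2.4.6). Both tests were tested on simulated data.

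Values on every array are printed for isoform genes and for up to 6 called members of each comparison with the smallest adjusted p, and other genes come from 10 lists, at most 4 named in each by the smallest F test p. Values by array of NDI1, COR1, ATP4, ATP14 and the pathway genes were added after their values were seen, and HAP1 and ROX1 are named as uncalled. The members and lists were chosen with earlier results of these data known. Alternatives covered scaling, floor, filter, variance trend, array weights, a replicate block, the actin ratio, the probe set, fits over 6 arrays and leaving out each array. Leaving out an array of a source outside a comparison, or changing the filter, variance trend or block, cannot move its log2 difference. These settings bear on its adjusted p alone.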

Additional observations from a re-analysis of the deposited data

How the results depend on the processing

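The direction of every called member held in all alternatives run, except ATP14, which was not called and whose log2 difference turned to 0.35 with proline and 0.67 with methionine when the probe set with the lowest mean was read. The counts of members differing over the 5 sources, with leucine and with methionine stayed within 1.5 times their values under every alternative, with ranges of 25 to 33, 10 to 16 and 15 to 21 when 1 array was left out. The proline count of 5 was 3 without the variance trend, 13 with array weights and 1 with the actin ratio as a covariate, and ranged from 1 to 9 when 1 array was left out. With array weights 11 members were higher and 2 lower, and 9.93% of all probe sets were called higher and 18.2% lower. Without the variance trend these shares were 3.85% and 8.14%, and with the actin ratio 1.86% and 2.56%. The phenylalanine count of 30 was 16 in the fit over 6 arrays and 23 to 31 when 1 array was left out. In the fit over 6 arrays 3.32% of all probe sets were called higher and 7.95% lower. Of the calls, 0 of 5 for proline, 10 of 12 for leucine, 16 of 30 for phenylalanine and 13 of 21 for methionine held under every alternative. Fits over 6 arrays called 6 members for proline, 15 for leucine and 21 for methionine. The shares of all probe sets called higher in them were 5.93%, 9.97% and 17.5%, and those called lower 10.8%, 12.1% and 27%. The cause of these changes was not tested.

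Deviations of same-numbered arrays correlated at -0.25 to 0.40 (median 0.015, 30 pairs), against -0.42 to 0.42 for other pairs (median 0.001, 60 pairs). The correlation was above 0.1 in 11 of the 30 pairs and in 13 of the 60. These values do not settle whether the replicate numbers pair the arrays. With the replicate block the counts were 31 over the 5 sources, 6 for proline, 13 for leucine, 30 for phenylalanine and 22 for methionine. The permutation p of COX5A minus COX5B was 0.0085 with the replicate block, 0.049 without proline, 0.036 without leucine, 0.017 without phenylalanine, 0.083 without methionine and 0.45 without asparagine. It was 0.017 to 0.13 when 1 array was left out, an alternative chosen after seeing the data, which gave 7.8e-06 to 4.9e-05 for CYC1 minus CYC7 and 0.00021 to 0.00082 for NDE1 minus NDE2. The 3 arrays in each group limit what can be called.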
